A study of Mus musculus with 17 samples.

Results

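The comparison was between c-myb h/h and control B cells sorted from mouse spleen as B220+CD23+. Its differences were taken from 6 of the 17 arrays of the series, 3 from each genotype. The arrays were chosen by their labels (c-myb h/h or control genotype, B220+CD23+ cell type). The controls were LDL-R KO mice, which lack the LDL receptor and develop atherosclerosis on a cholesterol-rich diet. The other mice were c-myb h/h and LDL-R KO as well, so both genotypes lacked the receptor, and all of them ate the high cholesterol diet for 12 weeks. The design describes separate mice, and the sources used here give neither their age nor the effect of the h/h allele on Myb. Values of the other sorted populations, IgM+CD138+ and B220+CD23-IgM+ cells of both genotypes, are set beside those of B220+CD23+ cells in places. Their arrays also entered the choice of rows to test and the spread of each row. Each SE, adjusted p and call in B220+CD23+ cells therefore depends on all 17 arrays, unless a fit of fewer arrays is named.

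Myb encodes a transcription factor that immature blood cells need, including the early stages of B cell development, and that is turned down as B cells mature. B220 is carried by B cells in general, and CD23, the low-affinity receptor for IgE, marks follicular B cells, the recirculating cells that enter germinal centres and give rise to memory and antibody-secreting cells after contact with antigen. In bulk samples of sorted cells, more cells of a kind and more RNA per cell cannot be told apart.

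The deposited table pairs its rows of values with probe IDs that do not belong to them: the values are displaced along the list. Rows are therefore cited by their place in the list, and gene names are estimates from a realignment that read levels, replicate spread and the contrast of IgM+CD138+ cells with the rest, and no genotype difference. A name was taken as firm where 5 fits gave the same gene and the first of them gave its ID a probability of at least 0.95. This held for 14059 of the 33327 rows with values. A further 71 rows, with a lower probability, were taken as firm because the IDs on both sides carried the same gene; this second way was added after the called Syne1 row was seen to miss the first, and of the 26 called rows it names only that 1. Rows holding the same values in all 17 arrays were compared by name. The realignment had not used that they were identical. It did read their levels and spread, which identical rows share, so the comparison is not independent of it. Of 363 pairs of such rows with firm names, in 43 sets, 363 shared a gene symbol, against 1 of 698 pairs with names as listed. Firm names had already been filtered for agreement of the fits. Over all estimated names, firm or not, 623 of 748 pairs did.

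The firmly placed markers went with the label of the sorted cells. Fcer2a, the gene of CD23, had a log2 value of 10.8 in control B220+CD23+ cells, 8.22 in B220+CD23-IgM+ cells and 8.0 in IgM+CD138+ cells. Cd79b, part of the B cell receptor, lay at 12.0 in control B220+CD23+ cells, and Ptprc, the gene of the CD45 molecule recognised by the B220 antibody, at 12.1. Xbp1 and Irf4, regulators of antibody-secreting cells, were lower in B220+CD23+ cells (8.78 and 8.93) than in IgM+CD138+ cells (11.9 and 10.9). Against the label stood Ms4a1, the CD20 gene of B cells: the row that 4 of 5 fits gave it held only 3.11 to 3.72 in the control arrays, and its name was not firm. The T cell genes Cd3e, Cd4 and Cd8a and the myeloid genes Csf1r and Cd14 lay between 4.32 and 6.998 in the 6 arrays. Of the 23 marker genes that were listed, 10 were firmly placed. Among those placed in 4 of 5 fits, Cr2, listed for follicular B cells, held 11.9 in control B220+CD23+ and 12.3 in control B220+CD23-IgM+ cells. Cd79a, listed for B cells, held 11.3 in control B220+CD23+ cells.

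**Figure D1:**
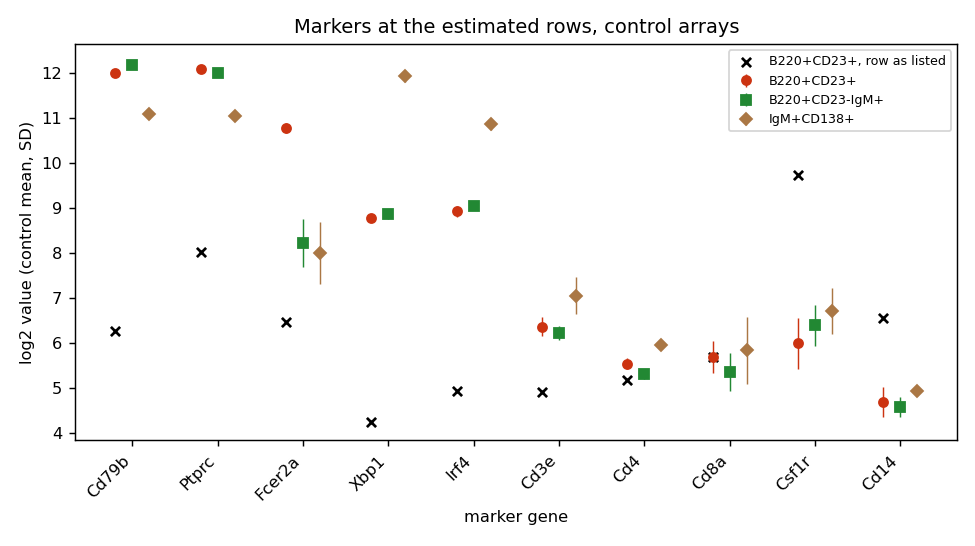
Log2 value (vertical axis) of each firmly placed marker gene in the control arrays, as mean and SD of 3 arrays (2 for B220+CD23-IgM+ cells), for the 3 sorted populations; crosses show the B220+CD23+ mean of the row as listed. Fcer2a stands at 10.8 in B220+CD23+ cells against 8.22 and 8.0 in the other populations, whereas the row listed for it holds 6.46.

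Neither of the 2 firmly placed Myb rows differed by genotype beyond the spread of the arrays. The first held 5.68, 5.70 and 5.84 in the control arrays and 5.77, 5.72 and 5.51 in the c-myb h/h arrays. The second held 6.72, 7.002 and 6.44 in control and 7.10, 6.74 and 6.89 in c-myb h/h arrays. The groups overlapped in both rows, with differences of -0.07 (SE 0.15) and 0.19 (SE 0.32) log2 and an adjusted p of 0.993 for each. The sources used here do not say which part of the transcript these probes read, so the rows do not check the genotype. The 2 rows that the list itself pairs with Myb, 7465 and 8319, overlapped as well. Row 7465 held 4.97, 5.09 and 5.23 in control and 4.91, 5.23 and 5.03 in c-myb h/h arrays (-0.04, adjusted p = 0.996), and row 8319 held 5.11, 4.88 and 5.41 against 5.10, 4.95 and 5.51 (0.05, adjusted p = 0.996).

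Genotype differences were few. In limma with Benjamini-Hochberg adjustment over the 19350 rows tested, 26 rows (0.134%) passed an adjusted p of 0.05, of which c-myb h/h cells had 19 (0.0982%) at a higher and 7 (0.0362%) at a lower level. In all 26 the arrays of the 2 genotypes did not overlap, which was also so for 3233 rows overall (16.7%). The differences ran from 1.45-fold to 4.48-fold, with 12 of the higher rows and 5 of the lower rows past 2-fold. The median difference over all rows tested was -0.00628 log2; RMA as a rule brings arrays to a common distribution, so a value near 0 can follow from the processing alone.

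Control replicate 1 correlated more with 2 of the 3 c-myb h/h arrays than with either of the other controls. Its correlation over the tested rows was 0.979 and 0.982 with the other controls, and 0.987, 0.984 and 0.981 with the c-myb h/h arrays. It was the highest control in 13 of the 19 higher rows. The summed level of the myeloid markers Csf1r and Cd14 was 11.6 in it against 10.4 and 10.01 in the other controls. That of the T cell markers Cd3e, Cd4 and Cd8a was 18.3 in it against 17.1 and 17.4. The part of such cells in the calls was not tested. Without it 50 rows were called, 42 higher and 8 lower, including 23 of the 26. Leaving out control replicate 2 or 3 left 4 and 6 calls, and leaving out c-myb h/h replicate 1, 2 or 3 left 7, 10 and 4. All of these were among the 26, so the size of the list rests on each array. Of the 26, 3 rows (39420, 13996 and 5740) were called in each of the 6 runs, whereas 15 of the 26 were called in at most 1.

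**Figure D2:**
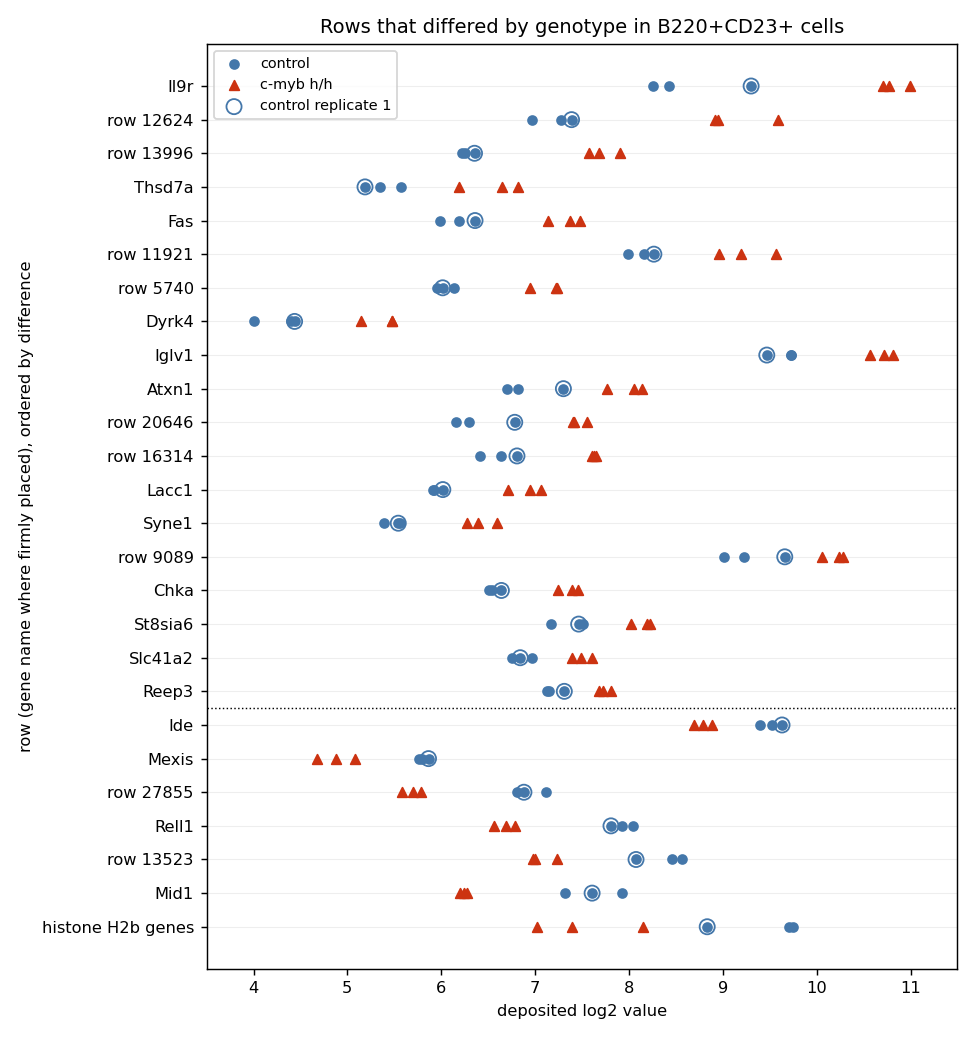
Deposited log2 value (horizontal axis) of the 26 called rows in each of the 6 B220+CD23+ arrays, with circles for control, triangles for c-myb h/h arrays and a ring around control replicate 1; rows above the dotted line were higher in c-myb h/h cells. In each row the 3 triangles lie to one side of the 3 circles, and control replicate 1 is the control nearest to the triangles in 13 of the 19 higher rows.

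**Figure D3:**
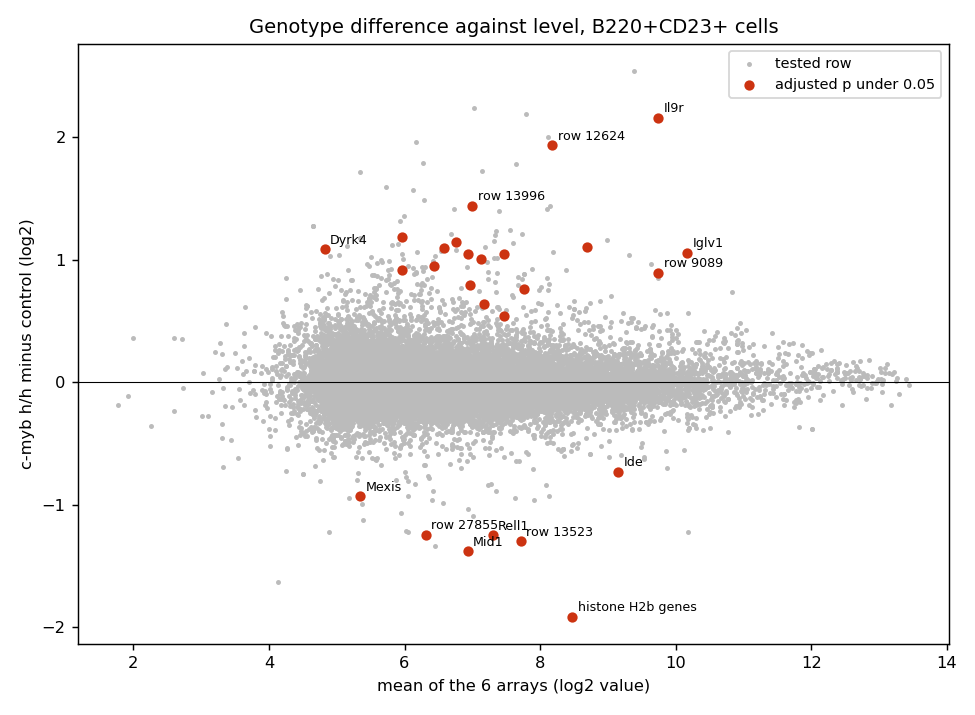
Difference of the genotype means (vertical axis, log2) against the mean of the 6 arrays (horizontal axis, log2) for the 19350 tested rows, with the 26 called rows in red and some of them named. Il9r is the highest called row at 2.16 and the histone H2b row the lowest at -1.91.

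The highest called row was Il9r (row 10391), the receptor of interleukin 9, a cytokine receptor that memory B cells are known to carry. Its log2 values were 9.30, 8.26 and 8.42 in the control arrays and 10.77, 10.71 and 10.998 in the c-myb h/h arrays, a rise of 2.16 (SE 0.31, adjusted p = 0.0148). The 3 c-myb h/h arrays lay close together, and control replicate 1 was the highest of the controls. The row after it in the list was placed at Rhbdf1, an inactive rhomboid protein that guides ADAM17 to the cell surface, and was the first row outside the threshold (1.44, adjusted p = 0.0514). In RefSeq (GRCm38.p6) 1 protein-coding gene, Snrnp25, lies between Il9r and Rhbdf1. Row 9089 was placed at Snrnp25, a splicing factor gene, in 4 of 5 fits, and rose by 0.89 (SE 0.16, adjusted p = 0.0341), from 9.66, 9.02 and 9.22 to 10.24, 10.28 and 10.06.

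Fas (row 20418), the death receptor that germinal centre and other activated B cells carry, rose 2.22-fold. Its values were 6.36, 5.99 and 6.19 in control and 7.48, 7.14 and 7.37 in c-myb h/h arrays (1.15, SE 0.18, adjusted p = 0.0191). Iglv1 (row 17395), a variable gene of the lambda light chain, rose by 1.06 (SE 0.17, adjusted p = 0.0226), from 9.47, 9.73 and 9.72 to 10.72, 10.82 and 10.57. It was the only one of 25 rows placed among immunoglobulin genes in all fits that was called, and their median difference was -0.11; its own call was lost with any of the 6 arrays left out (highest adjusted p 0.11). Iglv1 had a higher control level in IgM+CD138+ cells (12.6) than in B220+CD23+ cells (9.64). The row that 4 of 5 fits placed at Jchain, the joining chain of secreted IgM and IgA, held 6.97, 4.85 and 6.23 in control and 7.55, 7.23 and 7.52 in c-myb h/h arrays (1.41, adjusted p = 0.285). Its groups did not overlap. The row that 4 of 5 fits placed at Sdc1, the CD138 gene, went the other way, also without overlap. It held 5.73, 6.16 and 5.92 in control and 5.40, 5.56 and 5.37 in c-myb h/h arrays (-0.49, adjusted p = 0.173). At Prdm1, also placed in 4 of 5 fits, the genotypes overlapped (0.33, adjusted p = 0.859). The summed level of the firmly placed antibody-secreting cell markers Xbp1 and Irf4 was 17.6 to 17.9 in control and 17.3 to 17.6 in c-myb h/h arrays. The part of antibody-secreting cells in the rise of Iglv1 was not tested. In Fas and Iglv1 the arrays of the genotypes lay apart. St8sia6 (row 22763), a sialyltransferase, rose by 0.76 (SE 0.12, adjusted p = 0.0226), from 7.46, 7.17 and 7.52 to 8.02, 8.19 and 8.23.

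Syne1, which encodes nesprin-1, a large protein linking the nuclear envelope to the cytoskeleton, was placed over a run of 59 rows, of which 45 were tested. None of the 45 reached a probability of 0.95 for its own ID, since the rows of the run cannot be told apart, and 43 were firm through the neighbouring IDs. Row 8190 was called, with 5.54, 5.39 and 5.56 in control and 6.28, 6.39 and 6.59 in c-myb h/h arrays (0.92, SE 0.14, adjusted p = 0.0192). Of the 45 rows, 42 had differences above 0 (48.3% of all tested rows did), 28 had all c-myb h/h arrays above all controls (7.76% of all tested rows did) and 20 were higher at an unadjusted p under 0.05 (3.58% of all tested rows were). Their median was 0.48, and 0.51 without control replicate 1. Rows of 1 gene are not independent of each other, and most of them were dim: their mean level was 5.09 to 5.40 in control and 5.71 to 5.86 in c-myb h/h arrays. The rise was not particular to B220+CD23+ cells: the median difference of the 45 rows was 0.68 in B220+CD23-IgM+ and 0.16 in IgM+CD138+ cells.

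Chka (row 20122), choline kinase alpha, which starts phosphatidylcholine synthesis, had 6.64, 6.55 and 6.51 in control and 7.39, 7.24 and 7.46 in c-myb h/h arrays. The rise was 0.80 (SE 0.12, adjusted p = 0.0148), and all 3 c-myb h/h arrays lay above the controls. Atxn1 (row 13659), a nuclear repressor known from spinocerebellar ataxia, rose by 1.05 (SE 0.17, adjusted p = 0.0249), from 7.30, 6.70 and 6.81 to 7.77, 8.14 and 8.06. Lacc1 (row 15434), a metabolic enzyme best known from macrophages, had 6.02, 5.93 and 5.91 in control and 7.06, 6.71 and 6.94 in c-myb h/h arrays, a rise of 0.95 (SE 0.14, adjusted p = 0.0164). In none of the 3 did the genotypes overlap. Thsd7a (row 30825), a membrane protein with thrombospondin repeats, rose by 1.18 (SE 0.19, adjusted p = 0.0226), from 5.19, 5.57 and 5.35 to 6.82, 6.19 and 6.65. Dyrk4 (row 31501), a kinase, was dim in control, with 4.44, 4.40 and 4.001 against 5.48, 5.14 and 5.48 in c-myb h/h arrays (1.09, SE 0.18, adjusted p = 0.0226). The smallest called rises were those of Slc41a2 and Reep3. Slc41a2 (row 8661), a magnesium transporter, rose by 0.64 (SE 0.09, adjusted p = 0.0148), from 6.84, 6.75 and 6.96 to 7.40, 7.49 and 7.60. Reep3 (row 8485), which shapes the endoplasmic reticulum, rose by 0.54 (SE 0.09, adjusted p = 0.0276), from 7.31, 7.15 and 7.13 to 7.81, 7.68 and 7.72.

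The other 6 higher rows had no firm gene name. Row 12624, at an ID with no symbol in all fits, held 7.39, 6.97 and 7.28 in control and 8.95, 8.92 and 9.58 in c-myb h/h arrays, the second largest rise (1.94, SE 0.25, adjusted p = 0.00444). Row 13996 was placed at Naip6, a sensor of the inflammasome family, in 4 of 5 fits and held 6.35, 6.23 and 6.25 against 7.68, 7.57 and 7.91 (1.44, SE 0.17, adjusted p = 0.00338). Row 5740, between Pard3b and Nrp2 depending on the fit, held 6.02, 6.14 and 5.95 against 6.94, 7.22 and 7.23 (1.10, SE 0.12, adjusted p = 0.00338). None of these 3 overlapped between genotypes, and rows 13996 and 5740 had the lowest adjusted p of the 26. Row 11921, at an ID with no symbol, held 8.27, 7.99 and 8.16 against 9.57, 9.20 and 8.96 (1.10, SE 0.19, adjusted p = 0.0357). Row 16314, also at an ID with no symbol, rose by 1.01, and row 20646, at Grk5 in 4 of 5 fits, by 1.05.

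The lowest called row, 12899, was placed at an ID that the annotation pairs with several histone H2b genes. Its values were 8.83, 9.75 and 9.71 in control and 8.15, 7.39 and 7.02 in c-myb h/h arrays, a fall of 1.91 on the log2 scale (SE 0.31, adjusted p = 0.0226). Another of the 7, row 13523, lay at a cluster of H3 genes in 4 fits and of H4 genes in 1, and fell by 1.29 (SE 0.23, adjusted p = 0.0399), from 8.08, 8.57 and 8.45 to 6.98, 7.24 and 6.995. Most histone genes of these clusters are active during DNA replication and make messages without a poly(A) tail. Of 31 tested rows that all fits placed at such histone genes, 25 had differences below 0, 15 were lower at an unadjusted p under 0.05 (2.87% of all tested rows were) and 0 were higher. In 15 all c-myb h/h arrays lay below all controls, as in 8.95% of all tested rows. The median was -0.36, against -0.00628 over all rows, and -0.39 without control replicate 1. H2bc18, with 6.88, 7.21 and 7.11 against 6.36, 5.87 and 6.02, and H4c14, with 7.96, 8.89 and 8.32 against 7.20, 7.63 and 7.46, did not overlap between genotypes but missed the threshold (adjusted p = 0.103 and 0.415). Many of these IDs share sequence and gene names, so the rows are not independent measurements.

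Genes of cell division were looked at beside the histone rows. Of 18 genes listed for cell division, 11 were firmly placed and tested. Of these, 10 had differences above 0 (48.3% of all tested rows did), with a median of 0.14. The count called was 0, where 0.0982% of all tested rows were called higher and 0.0362% lower. So few rows could hardly hold a call, and nothing is read from this count. Pcna, the clamp of the replication fork, held 10.22, 10.04 and 10.10 in control and 10.23, 10.33 and 9.99 in c-myb h/h arrays, so its groups overlapped. Mcm3, a part of the replicative helicase, differed by 0.04 (SE 0.14, adjusted p = 0.996). Ccnb2, a mitotic cyclin, was the 1 gene higher at an unadjusted p under 0.05 (0.65), as 3.58% of all tested rows were. The cell division list was chosen after values had been seen, and the histone and Syne1 groups were formed because their called rows had been seen, so their counts describe these arrays and support nothing.

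The other called falls were of genes with unrelated roles. Mid1 (row 39420), a ubiquitin ligase bound to microtubules, held 7.61, 7.93 and 7.32 in control and 6.20, 6.28 and 6.24 in c-myb h/h arrays, a fall of 1.38 on the log2 scale (SE 0.16, adjusted p = 0.00356), and was among the rows called whichever array was left out. Rell1 (row 29043), a relative of the TNF receptor family member RELT, fell by 1.25 (SE 0.19, adjusted p = 0.0191), from 7.81, 7.92 and 8.04 to 6.56, 6.69 and 6.78. Ide (row 21002), the insulin-degrading protease, fell by 0.73 (SE 0.09, adjusted p = 0.00444), from 9.63, 9.40 and 9.53 to 8.88, 8.79 and 8.69. In all 3 every c-myb h/h array lay below every control. Row 27855, at Cdk6 in 4 of 5 fits, fell by 1.24 (SE 0.20, adjusted p = 0.0226), from 6.88, 7.11 and 6.80 to 5.70, 5.59 and 5.78.

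Mexis (row 27010), a long non-coding RNA that amplifies the induction of the cholesterol exporter Abca1 by liver X receptors, also fell. Its values were 5.86, 5.80 and 5.76 in control and 4.87, 5.08 and 4.68 in c-myb h/h arrays, a fall of 0.93 on the log2 scale (SE 0.16, adjusted p = 0.0341). The call was lost when any of the 6 arrays was left out (highest adjusted p 0.23). Abca1, with 3 genes between it and Mexis in RefSeq, held 9.99, 9.71 and 9.81 against 9.22, 9.22 and 9.24. Its groups did not overlap, but the difference of -0.61 (SE 0.14) missed the threshold (adjusted p = 0.137). Mylip, another liver X receptor target, held 10.89, 10.91 and 10.81 against 10.57, 10.61 and 10.62 (-0.27, adjusted p = 0.522). Of 18 genes of cholesterol handling, 6 were firmly placed and tested, and 0 were called (0.134% of all tested rows were). Abca1 and Mylip were the 2 that were lower at an unadjusted p under 0.05 (2.87% of all tested rows were). Srebf2, which switches on cholesterol synthesis, and Scd1, a fatty acid desaturase, differed by 0.0031 and -0.0048. This list was drawn up after Mexis and Abca1 had been seen to be low.

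Genes known from antigen-experienced B cells were looked at beside Il9r and Fas. Of 18 such genes 13 were firmly placed and tested, 2 were called (Il9r and Fas; 0.0982% of all tested rows were called higher), 6 were higher at an unadjusted p under 0.05 (3.58% of all tested rows were) and 0 lower, and the median difference was 0.36. The list was drawn up after Il9r, Fas, Cd80, Nt5e and Cxcr3 had been seen to be higher, so its counts support nothing. Cd80, a costimulatory ligand, held 5.19, 5.30 and 5.35 in control and 6.36, 6.39 and 6.08 in c-myb h/h arrays (0.99, adjusted p = 0.596). Nt5e, the CD73 nucleotidase, held 5.72, 5.37 and 6.01 against 6.54, 6.64 and 6.57 (0.88, adjusted p = 0.499). Cxcr3, a chemokine receptor, held 6.93, 7.19 and 6.23 against 7.87, 7.85 and 7.33 (0.90, adjusted p = 0.415). None of these 3 overlapped between genotypes, and neither did Sema7a, a semaphorin (0.84, adjusted p = 0.145). With only the 6 B220+CD23+ arrays in limma, Cd80 was called (adjusted p = 0.0205). Nt5e (0.0759), Cxcr3 (0.250) and Sema7a (0.133) were not called in that fit. Of the 13 rows, 7 had all c-myb h/h arrays above all controls (7.76% of all tested rows did). In 1 they lay below all controls (8.95% of all tested rows did): Bcl6, the master regulator of germinal centre B cells, at -0.33 (adjusted p = 0.916). Other genes of the list had smaller differences: Pdcd1lg2, the ligand PD-L2, by 0.02, and Tbx21, the regulator T-bet, by 0.03.

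The largest difference of any firmly named row was not called. Lilrb4a, an inhibitory receptor of myeloid and activated B-lineage cells, held 9.70, 6.95 and 7.70 in control and 10.87, 10.67 and 10.44 in c-myb h/h arrays, a difference of 2.54 (SE 0.52, adjusted p = 0.0880). Control replicate 1 lay between the other controls and the c-myb h/h arrays, and without it the difference was 3.33 and was called (adjusted p = 0.00292). On the lower side, Eya1, a transcriptional coactivator, held 7.18, 7.84 and 7.66 against 6.49, 6.48 and 6.42 (-1.09, adjusted p = 0.137), and Il5ra, the receptor of interleukin 5, held 8.01, 8.19 and 8.13 against 7.28, 7.27 and 6.93 (-0.95, adjusted p = 0.383). Sox4, which acts in B cell precursors (-1.13, adjusted p = 0.565), and Cd93, a marker of immature B cells (-0.80, adjusted p = 0.573), had lower means as well. With only the 6 B220+CD23+ arrays in limma, Il5ra was called (adjusted p = 0.0282). Eya1 (0.0537), Sox4 (0.196), Cd93 (0.118) and Lilrb4a (0.169) were not called in that fit. The rows of this paragraph were picked from among the largest firmly named differences without overlap, and others larger than that of Cd93 were passed over. Among those were Pde2a (-0.92) and Gm19951 (-0.84) on the lower side, and Arfip1 (1.72) and Ptpn14 (1.24) on the higher side.

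Macrophage genes had higher means in the c-myb h/h arrays, without passing the threshold. All 5 of the 10 listed that were firmly placed and tested (Adgre1, C1qb, C1qc, Cfp and Fcna) had all c-myb h/h arrays above all controls (7.76% of all tested rows did) and were higher at an unadjusted p under 0.05 (3.58% of all tested rows were), with differences from 0.50 to 1.08, and 0 were called. C1qb, a chain of complement C1q, held 6.27, 5.92 and 5.82 in control and 6.50, 7.18 and 7.55 in c-myb h/h arrays (1.08, adjusted p = 0.330). The list was drawn up after C1qb, Fcna and Mpeg1 had been seen to be higher, so this count supports nothing either. Their mean level was 6.04 to 6.24 in the control and 6.70 to 7.08 in the c-myb h/h arrays, and their median difference was 0.90 in IgM+CD138+ and 0.89 in B220+CD23-IgM+ cells. Of the 4 myeloid markers, Csf1r and Cd14 were firmly placed, and they differed in opposite directions. Csf1r, a macrophage growth factor receptor, held 6.58, 5.95 and 5.44 in control and 6.53, 6.998 and 6.63 in c-myb h/h arrays (0.73, unadjusted p = 0.0288 and adjusted p = 0.677 in limma), and differed by 0.73 in IgM+CD138+ and 0.61 in B220+CD23-IgM+ cells. Cd14, a co-receptor for bacterial lipopolysaccharide, differed by -0.22 (adjusted p = 0.920). Their summed level was 10.01 to 11.6 in control and 10.9 to 11.6 in c-myb h/h arrays, and the summed level of the 3 T cell markers was 17.1 to 18.3 and 16.7 to 18.3. Of 8 genes of NK and cytotoxic T cells 2 were firmly placed and tested (Prf1 and Ncr1), with a median of 0.53. Of the 2, 1 was higher at an unadjusted p under 0.05 (3.58% of all tested rows were). That list, too, was drawn up after genes such as Gzma had been seen to be higher. Of 8 marginal zone B cell genes, also listed after values had been seen, 5 were firmly placed and tested, with a median of 0.29. Among the 5, 1 (Cd9) was higher at an unadjusted p under 0.05 (3.58% of all tested rows were). In both lists 0 were called (0.134% of all tested rows were). The part of macrophage RNA in the rise of Lacc1, of row 13996 and of the other called rows was not tested.

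**Figure D4:**
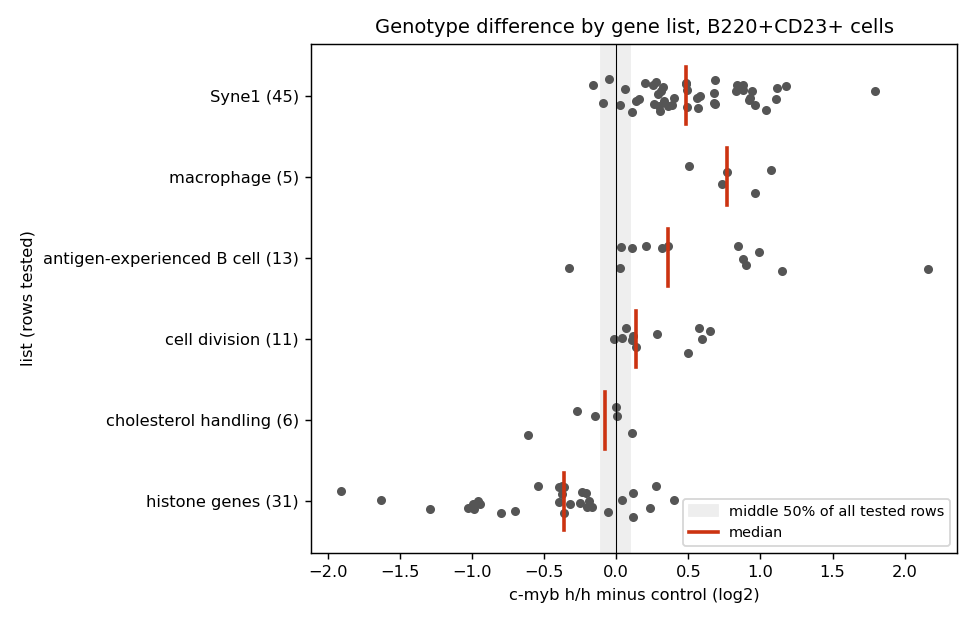
Genotype difference (horizontal axis, c-myb h/h minus control, log2) of each tested row of 6 lists, 1 point per row, with the list's median in red and the middle 50% of all tested rows shaded. The medians run from -0.36 for histone genes over 0.14 for cell division to 0.48 for Syne1 and 0.77 for macrophage genes.

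The rows called in B220+CD23+ cells were set beside the same rows in the other populations, measured on other arrays. All 26 differed in the same direction in B220+CD23-IgM+ cells and 24 in IgM+CD138+ cells, where 56.9% and 52.9% of all tested rows had the same direction as in B220+CD23+ cells. Among rows with an unadjusted p under 0.05 in B220+CD23+ cells, the nearer background, the shares were 76.5% and 65.8%. In B220+CD23-IgM+ cells 4 of the 26 were called (0.0413% of all tested rows were), and in IgM+CD138+ cells 3 (0.191%). If arrays with 1 number and genotype came from 1 mouse, which the labels do not state, the populations are not independent samples.

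Mid1 was called in all 3 populations, with falls of 1.38 in B220+CD23+, 2.23 in B220+CD23-IgM+ and 1.59 in IgM+CD138+ cells. Rell1 (-1.17, adjusted p = 0.0197) and Ide (-0.61, adjusted p = 0.0154) were also called in IgM+CD138+ cells. Row 12624 (1.87), row 5740 (0.95) and Dyrk4 (1.63) were also called in B220+CD23-IgM+ cells. The 19 higher rows had a median difference of 1.05 in B220+CD23+, 0.70 in B220+CD23-IgM+ and 0.17 in IgM+CD138+ cells, and the 7 lower rows -1.25, -0.86 and -0.61. The rows were selected in B220+CD23+ cells, which favours larger values there.

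Whether the genotype acted unequally in 2 populations was tested as a contrast in limma. Setting IgM+CD138+ beside B220+CD23+ cells, 0 rows (0%) passed, with a lowest adjusted p of 0.0795, and 1303 rows (6.73%) had an unadjusted p under 0.05. Setting B220+CD23-IgM+ cells beside them, 0 rows (0%) passed, with a lowest adjusted p of 0.896, and 750 (3.88%) had an unadjusted p under 0.05. Fas, for example, differed by 0.13 in IgM+CD138+ cells and by 0.92 in B220+CD23-IgM+ cells, and Il9r by 0.83 and 1.26.

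**Figure D5:**
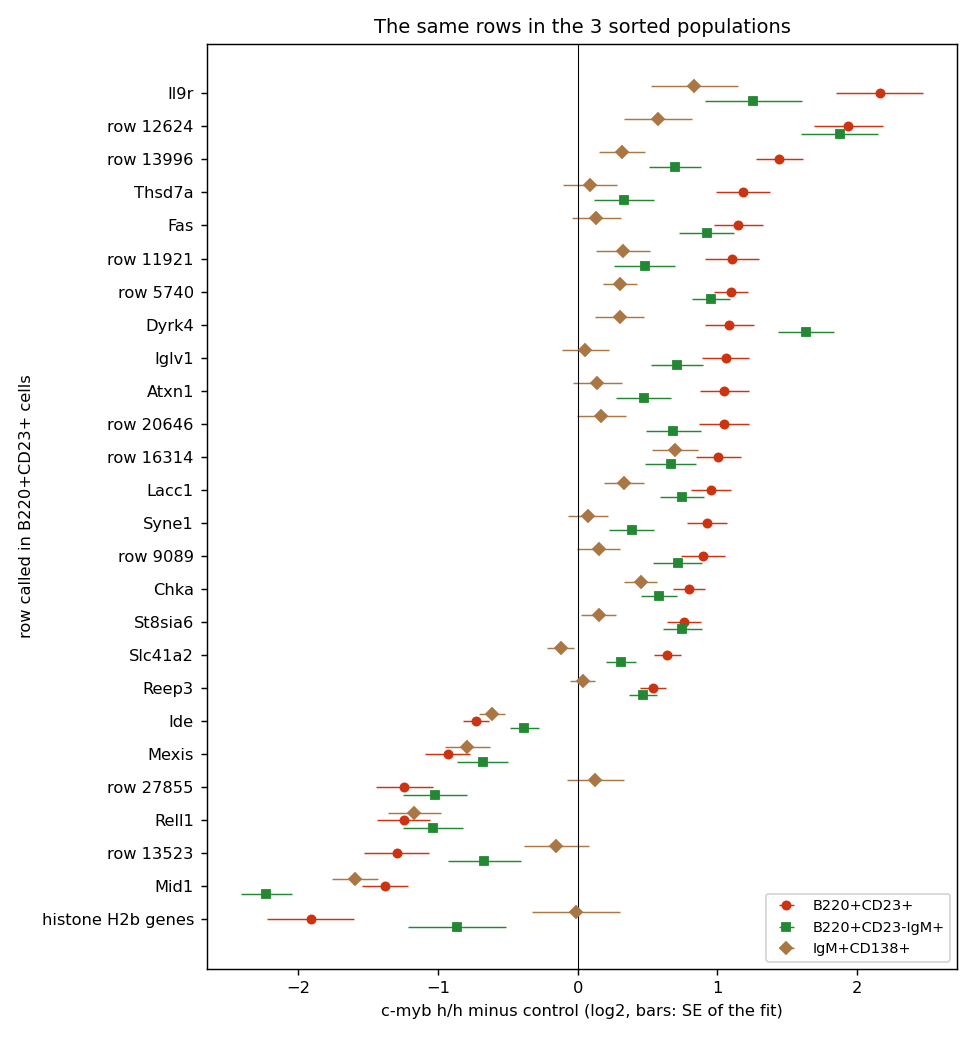
Genotype difference (horizontal axis, log2, bars show the SE of the fit) of the 26 called rows in B220+CD23+ (circles), B220+CD23-IgM+ (squares) and IgM+CD138+ cells (diamonds). All squares and 24 of the 26 diamonds lie on the same side of 0 as the circles, and Mid1 is far below 0 in each population.

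In control mice, 15 of the 19 higher rows had a higher level in B220+CD23-IgM+ than in B220+CD23+ cells, and 10 had a higher level in IgM+CD138+ cells. The choice of the rows favours this, since low control values in B220+CD23+ cells helped a row to be called higher, so nothing is read from these counts. Lacc1, for instance, stood at 7.25 in control B220+CD23-IgM+ and 5.95 in control B220+CD23+ cells, and Atxn1 at 8.38 and 6.94. Among the 7 lower rows, 2, both placed at histone genes, were lower in control B220+CD23-IgM+ cells.

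The called rows were spread along the list. They fell in 18 of the 36 blocks of 1000 listed rows that held tested rows, with at most 3 in a block, between rows 5740 and 39420. Of the 1096 tested rows within 500 rows of the rows listed as Myb, 3 were called (0.274%, against 0.134% of all tested rows). They were placed at Syne1, Slc41a2 and Reep3. Of the rows in this window 8.58% had an unadjusted p under 0.05, and 7.04% with the Syne1 rows left out, against 6.45% of all tested rows.

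Just outside the threshold were Rhbdf1 and rows 37213 (0.90), 15646 (placed at Cpq, a peptidase, 0.84), 34725 (1.08) and 21159 (1.17), at an adjusted p of 0.0514 to 0.0536. Their arrays did not overlap between genotypes either, and all of them were higher in c-myb h/h cells. Just inside it were row 13523 (adjusted p = 0.0399) and row 11921 (0.0357).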

How the data were processed

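Each sample is 1 microarray of biotin-labelled RNA from sorted cells, per the labels. RMA gave the deposited log2 values, according to the submitters' processing notes. The table lists 41801 rows, of which 8474 were blank and 33327 held values in 17 arrays. Rows above the median of their array in at least 2 arrays (19350) were tested in limma 3.58.1 under R 4.3.3 (lmFit, eBayes; 2-sided), with a mean for each of the 6 groups, 11 residual degrees of freedom and Benjamini-Hochberg adjustment. The planned rule gave rows no gene names, only row numbers and listed IDs, with values by array for the 10 highest and 10 lowest called rows; naming rows departs from it, and listed IDs, which belong to other rows, were left out. Precision is limited by the number of arrays: 3 against 3 arrays cannot go below 0.1 in an exact permutation test.

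Names came from a hidden Markov model of the displacement between values and IDs (Python 3.11.15, numpy 2.4.6), read against the platform annotation (1 symbol for 23365 of the listed IDs with values, several for 1774, none for 8188). It was built after values were seen and in several versions, its step probabilities and the 0.95 rule included: steps back along the list were added when left-out markers lay 1 row off, so the markers are no independent check. The rule on neighbouring IDs came later still. Fits on 2 disjoint sets of IDs gave the same displacement for 62.5% of rows and within 2 rows for 93.6%. The rows with identical values were examined after the model was final. Both models were run on simulated data. For the realignment these were drawn along its own fitted path, so that run cannot show that the path is right.

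Members, lists and rules were chosen with earlier results of these data known. Alternatives covered the filter, normalization, variance model, array weights, blocks, a fold threshold, the arrays in the fit and each array left out. Figures were drawn with matplotlib 3.10.9.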

Additional observations from a re-analysis of the deposited data

How the results depend on the processing

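The direction of each of the 31 rows given with an adjusted p near or under the threshold was kept in all 588 comparisons with an alternative, of which 178 lost the call and 39 gained one. The count of 26 rows in B220+CD23+ cells stayed between 21 and 38 with another filter, another normalization, the mouse as a random block, or fewer populations in the fit, although only 18 of the 38 rows called from the 6 arrays alone were among the 26. With the IgM+CD138+ arrays left out of the fit, the 21 rows called were 10 higher and 11 lower, against 19 and 7, with 15 shared. The count moved to 44 with trend and robust moderation, 10 by ordinary least squares, 130 with array weights (26 of them shared) and 0 with a 1.5-fold threshold, and lay between 4 and 50 when each B220+CD23+ array was left out. The cause of these moves was not tested.

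With the replicate number as a block the count was 44 over all arrays and 86 over the 6 arrays. The numbers were not shown to pair the samples. Deviations of same-numbered arrays correlated at 0.345, 0.0698 and 0.0856, and those of arrays with other numbers at -0.273 to 0.204. Whether arrays with the same number shared a batch was not tested. The 0 rows for a difference in genotype effect between IgM+CD138+ and B220+CD23+ cells became 1 by ordinary least squares, 1 under array weights, 2 with trend and robust moderation, and 0 to 5 with an array left out. Against B220+CD23-IgM+ cells it was 0 in all alternatives. The medians of the gene lists kept their sign in all alternatives, from -0.44 to -0.23 for histone genes and from 0.41 to 0.51 for Syne1.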
